A study of Homo sapiens with 24 samples.

Results

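The aminoacyl-tRNA synthetase genes were taken by symbol, as the single-letter amino acid code followed by ARS with or without 1 or 2, together with FARSA, FARSB, EPRS1 and SEPSECS. This gave 38 of the 18154 gene symbols in the study's tables. The cytosolic set held 20 genes, the mitochondrial set held the 17 whose symbols end in 2, and SEPSECS belonged to neither. RNA sequencing had been done on 24 libraries of BT549, an established human triple negative breast cancer cell line, in 8 groups of 3 labelled as biological replicates. Nothing beyond that label says that replicates came from separate cultures, so the p-values measure the spread between these libraries of 1 cell line. For the knockdown, pooled small interfering RNAs targeting MYC had been applied over 72 h (siMYC), and the comparison group was labelled siCtl with no time given. The inhibitor experiment had 4 groups. These were vehicle (VEH), the MYC inhibitor KJ-PYR-9 dissolved in DMSO (40 µM, 3 h), an agent named only DEX with neither dose nor time given, and the pair of agents combined (KJ-PYR-9+DEX). A further experiment set MB-3, an inhibitor of the acetyltransferase KAT2A, at 100 µM for 3 h (MB3) against vehicle libraries of its own (VEH2). MB3 library 1 carries MED3 in its title but MB3 as its treatment, which decided its group. Cells of all groups were labelled wild type.

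Aminoacyl-tRNA synthetases join each amino acid to its matching transfer RNA, the step that sets the genetic code during protein synthesis. The cytosolic enzymes charge the tRNAs used by cytosolic ribosomes, while a mostly separate set of nuclear genes encodes the enzymes imported into mitochondria. KARS1 and GARS1 are exceptions, since each encodes both the cytosolic and the mitochondrial enzyme. Several cytosolic synthetases are held together in the multisynthetase complex, several are targets of ATF4, the transcription factor of the amino acid response, and WARS1 is known as an interferon-induced gene. MYC is known to raise the expression of many genes of protein synthesis. SEPSECS, unlike the others, makes selenocysteine on a tRNA that already carries another amino acid.

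The values are the deposited normalized read counts, and the 3 experiments were normalized apart, so each comparison stayed within its own experiment. Libraries held 18.8 to 24.2 M (mega) reads for the knockdown, 8.31 to 20.0 M for MB-3 and its vehicle, and 5.58 to 30.8 M for the 12 inhibitor libraries. DEX library 1 was the shallowest and stood apart, with 26.04% of its reads on features without a symbol against 1.62% to 8.72% in the 11 other inhibitor libraries. The counts of called members and the set medians that rest on it are also given without it. The mesenchymal markers VIM, FN1, CD44, SPARC and CAV1 had group means between 5663 and 28155 in all 8 groups. Of these 5, 4 were called higher under KJ-PYR-9, 3 under DEX, and FN1 alone in siMYC. Of the genes of other cells searched, the leukocyte gene PTPRC and the macrophage gene CD68 had means of up to 27.6 and up to 39.1 in the knockdown and inhibitor groups, and CD68 was called higher in siMYC (from 12.2 to 39.1). The part of these marker changes in the results was not tested. Of the luminal and receptor genes searched, GATA3 had means of 178 to 660, while PGR and FOXA1 had means of 0 to 13.4 in the inhibitor groups. MYC itself averaged 2240 ± 91.2 (SD, n = 3) in siCtl and 1718 ± 67.2 in siMYC, a log2 difference of -0.38 (SE 0.11, limma adjusted p 0.0587), with no overlap between the groups. Its mean under KJ-PYR-9 was 9853 ± 1408 against 1806 ± 598 under vehicle. KAT2A, the target of MB-3, averaged 422 ± 64.8 in MB3 and 483 ± 59.2 in VEH2, and these groups overlapped.

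Promoters were searched for the letters of 3 elements known from the amino acid response, MYC and interferon. RefSeq promoters on GRCh38.p14, each 250 bases before to 50 bases after a start of the gene, were found for 30 of the 38 members. That start need not be the outermost one of the gene. The letters TGATGNAA, the core of the amino acid response element, were searched on both strands. They occurred in 8 of the 30 members (26.7%), namely 7 of 16 cytosolic genes and YARS2 of 14 mitochondrial genes, against 4.46% of 27305 genes with a promoter in the table. The sequences below are written 5′ to 3′ on the gene's own strand, with the matching letters in capitals, and in all those shown but NARS1 the element reads on the opposite strand. They are shown because each of these 7 genes was called in at least 1 comparison of the inhibitor experiment. That does not set them apart, since every other member tested there was called as well, except HARS2, TARS2, WARS1 and YARS2.
GARS1: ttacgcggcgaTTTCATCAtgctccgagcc
TARS1: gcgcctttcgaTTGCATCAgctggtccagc
CARS1: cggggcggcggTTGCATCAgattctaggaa
IARS1: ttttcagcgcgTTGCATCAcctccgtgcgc
MARS1: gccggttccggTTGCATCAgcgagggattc
NARS1: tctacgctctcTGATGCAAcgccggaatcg
AARS1: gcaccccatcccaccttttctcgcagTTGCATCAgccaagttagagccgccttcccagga
The windows are chr7:30594834-30594863 (plus strand), chr5:33440956-33440985 (plus), chr11:3057407-3057436 (minus), chr9:92293692-92293721 (minus), chr12:57488053-57488082 (plus), chr18:57621804-57621833 (minus) and chr16:70289660-70289719 (minus), in that order. The match lay before the start used for the promoter in GARS1, IARS1 and AARS1, across it in CARS1 and MARS1, and just after it in TARS1 and NARS1. In GARS1 and TARS1 that start lies inside the gene's RefSeq span, which begins at chr7:30594735 and chr5:33440696. All but the AARS1 window overlap an annotated GENCODE v29 exon of their gene. A match is a stretch of letters and not a measured binding site.

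CACGTG, the E-box letters known as a binding sequence of MYC, occurred in 4 of the 30 members (13.3%), IARS1, CARS2, EARS2 and MARS2, against 8.78% of all genes. GAAANNGAA, the core of the interferon-stimulated response element, occurred in WARS1, GARS1, IARS1 and EARS2, again 4 of 30 (13.3%), against 9.86% of all genes. The windows of MARS2 and WARS1 are shown because these genes had the largest fitted differences in the knockdown.
MARS2: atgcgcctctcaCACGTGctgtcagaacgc
WARS1: tttcagaaggGAAACTGAAagaaagaggg
The MARS2 window is chr2:197705346-197705375 on the plus strand, and the WARS1 window is chr14:100375384-100375412 on the minus strand. Both overlap an annotated exon, and the WARS1 window lies wholly inside the gene's RefSeq span.

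In the control groups, the cytosolic synthetases were several times more abundant than the mitochondrial ones. Levels here are normalized counts per kilobase of the longest annotated transcript, so that genes of different length can be compared. The median of the cytosolic set was 1155 per kilobase in siCtl, 710 in VEH and 985 in VEH2, and that of the mitochondrial set was 152, 84.5 and 114. The ratio of these medians was 7.61 ± 0.20 (SD over 3 libraries) in siCtl, 8.41 ± 0.70 in VEH and 8.67 ± 0.20 in VEH2. It was lower, at 5.03, 5.58 and 6.44, when levels were set per kilobase of the union of all exons. Per kilobase of the longest transcript, the 12 highest members were cytosolic in all 3 control groups. Per kilobase of all exons, the mitochondrial IARS2 was at rank 12 in siCtl. The cytosolic FARSA and TARS1 also came among the 12 highest there, and YARS1, WARS1 and MARS1 left them.

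GARS1, the glycyl-tRNA synthetase, led in siCtl with 2787 ± 330 per kilobase and in VEH2 with 2785 ± 100. SARS1, the seryl enzyme, followed with 2430 ± 217 and 2765 ± 16.3. In VEH their order was turned, with 1701 ± 340 for SARS1 and 1473 ± 195 for GARS1. The ranges of both genes overlapped in all 3 groups, although within each library GARS1 was above SARS1 in all 3 of siCtl and below it in all 3 of VEH. AARS1, the alanyl enzyme, was the third in each control group, with 2286 ± 182 in siCtl. The sets were not fully apart. In siCtl, 6 mitochondrial genes lay above CARS1, the lowest cytosolic member at 221 ± 8.56 per kilobase. IARS2, the mitochondrial isoleucyl enzyme, was the highest of its set at 724 ± 19.3, and VARS2 was the lowest member of all at 3.33 ± 1.48. VARS2 fell under the filter of a mean of 10 normalized counts in the inhibitor experiment, which left 37 members tested there. SARS2, VARS2 and SEPSECS were not analysed in the MB-3 experiment, which left 35 there.

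The heat map of log2 changes shows 36 of the 38 members in each comparison. Each value is the difference of mean log2(normalized count + 1), treated minus control, and a call is an adjusted p under 0.05 from limma with Benjamini-Hochberg adjustment over all genes tested. Called members described below by library were picked among those whose groups did not overlap, so a lack of overlap adds no support for them.

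**Figure D1:**
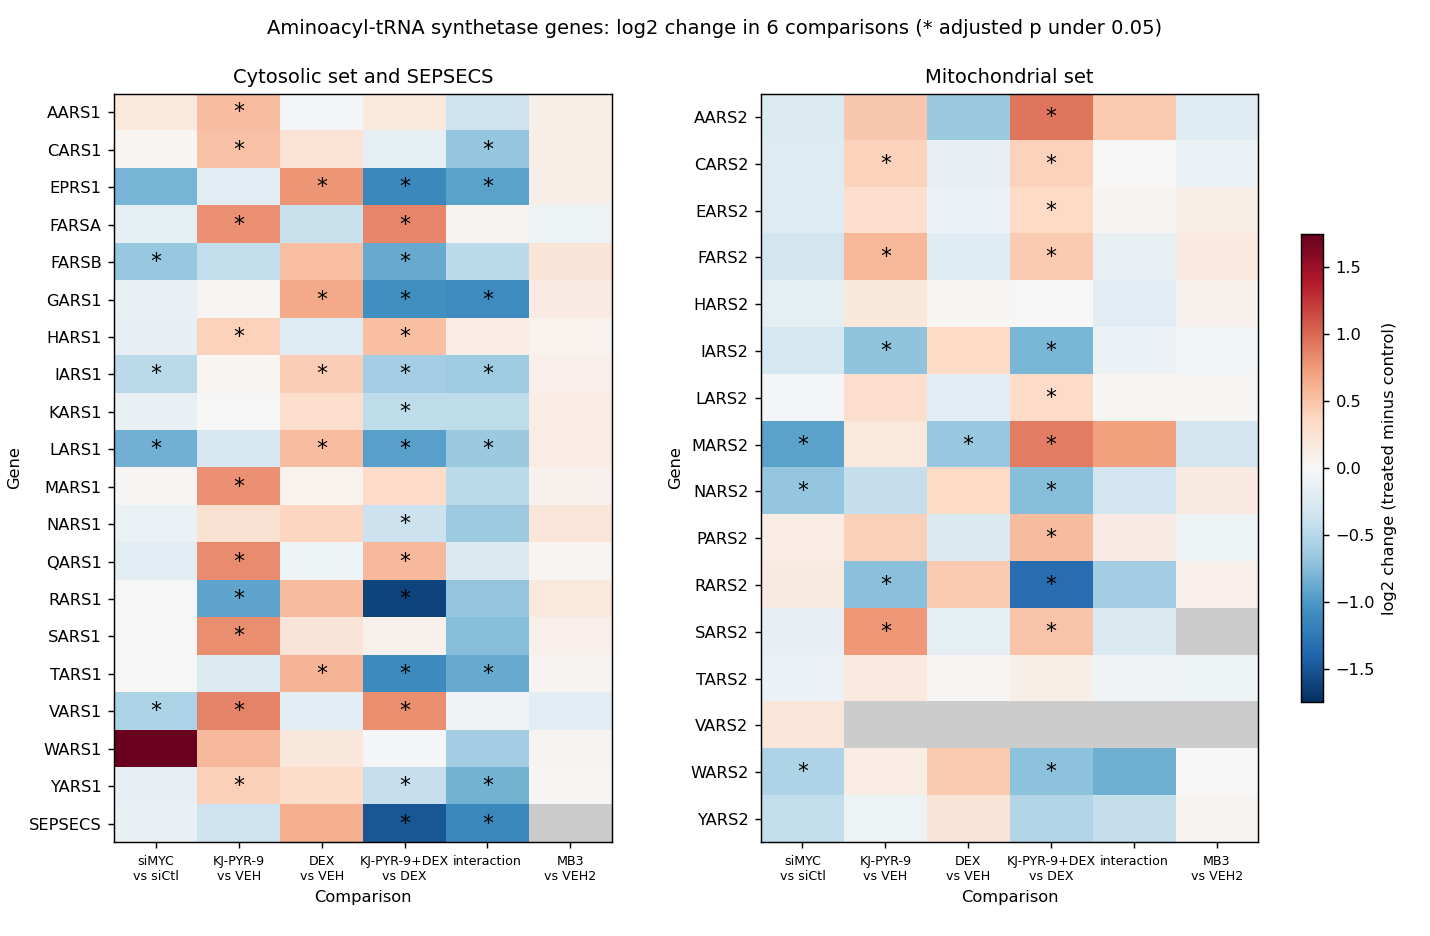
Log2 change of 36 genes (vertical axis) in 6 comparisons (horizontal axis), with the cytosolic set and SEPSECS on the left and the mitochondrial set on the right. Red is higher and blue lower in the treated group, stars mark adjusted p under 0.05 and grey cells were not tested. KJ-PYR-9 with DEX against DEX has the most stars, 12 for rises and 15 for falls, and MB3 against VEH2 has none.

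The knockdown comparison asks how the family behaves when MYC is targeted by RNA interference. Of the 38 members, 7 (18.4%) fell and 0 rose in siMYC, against 4.78% of all 14788 genes tested called lower and 11.4% called higher. At an unadjusted p under 0.05 limma had 1 member higher, WARS1, and 10 lower. Of all 14788 genes, 3269 were higher and 2094 lower at that p. In RNA from a whole culture, a change in some of the cells and a smaller change in each cell cannot be told apart. The 4 cytosolic genes that fell were LARS1, FARSB, VARS1 and IARS1, and the 3 mitochondrial genes were MARS2, NARS2 and WARS2. The median change was -0.13 in the cytosolic set and -0.23 in the mitochondrial set, where that of all genes was 0.05, and 30 of 38 members had a negative value. Of all called genes 70.4% were higher, a share that was 59.3% after rescaling with trimmed means of M values (TMM) and 46.5% after trends with GC content and transcript length were removed. Trend removal also moved the median of all genes from 0.05 to -0.05, so the members' values there are to be read against that lower median.

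MARS2, the mitochondrial methionyl-tRNA synthetase (chr2:197705369-197708395 in RefSeq on GRCh38.p14, as for the genes below), measured 162, 180 and 220 in the 3 siCtl libraries and 93.1, 104 and 93.6 in siMYC. It fell by 0.93 (SE 0.15) on the log2 scale, adjusted p 0.0148, the lowest fitted value of the family. LARS1, the cytosolic leucyl enzyme and a sensor of leucine (chr5:146113034-146182650), measured 7448, 7553 and 7563 in siCtl and 4816, 3669 and 4136 in siMYC. The siCtl libraries lay close together, the siMYC libraries were all lower, and LARS1 fell by 0.85 (SE 0.14, adjusted p 0.0149). NARS2, which charges mitochondrial asparagine tRNA, went from 289, 295 and 365 to 219, 200 and 171 and fell by 0.68 (SE 0.15, adjusted p 0.0332). FARSB, the beta subunit of cytosolic phenylalanyl-tRNA synthetase, went from 773, 921 and 1007 to 620, 628 and 467 and fell by 0.66 (SE 0.17, adjusted p 0.047). Its partner subunit FARSA had a change of -0.15 with overlapping groups and no call, so the pair did not share a call. None of these 4 genes had overlapping groups, nor did the others that fell, IARS1 (-0.48), VARS1 (-0.56) and WARS2 (-0.54). Of the 14788 genes tested, 3930 were higher and 2534 lower without overlap.

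WARS1, the cytosolic tryptophanyl enzyme (chr14:100333790-100376327), had the largest fitted difference of any member and no call. It measured 4106, 4410 and 2537 in siCtl and 13075, 5913 and 21723 in siMYC, so all siMYC libraries were above all siCtl libraries while differing widely among themselves. The log2 difference was 1.73 (SE 0.47) and the adjusted p 0.0526, which missed the threshold. Without siMYC library 2, the lowest of its group, it was 2.23 with an adjusted p of 0.0251. Over all the alternatives the adjusted p ran from 0.0251 to 0.156, and it was under 0.05 also with a pseudocount of 8 (0.0385) and with the filter at a mean of 50 (0.0336). Beside it, 13 of 15 genes of an interferon list were called higher in siMYC, with a median change of 2.82. IFIT1, an antiviral effector, went from 324 to 10194 (log2 4.97, SE 0.45, adjusted p 0.00551 with limma). The part of the interferon genes in the WARS1 values was not tested.

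KARS1 and GARS1, whose products serve both compartments, did not pass the test. KARS1 measured 2615, 2637 and 2961 in siCtl and 2471, 2663 and 2384 in siMYC (log2 -0.13, SE 0.12, adjusted p 0.472). GARS1 measured 7790, 7895 and 6338 against 7205, 5160 and 8037 (log2 -0.13, SE 0.20, adjusted p 0.67), and both genes had overlapping groups. The plot of knockdown values shows WARS1 as the only one of the 10 genes drawn whose siMYC libraries all lie above the controls.

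**Figure D2:**
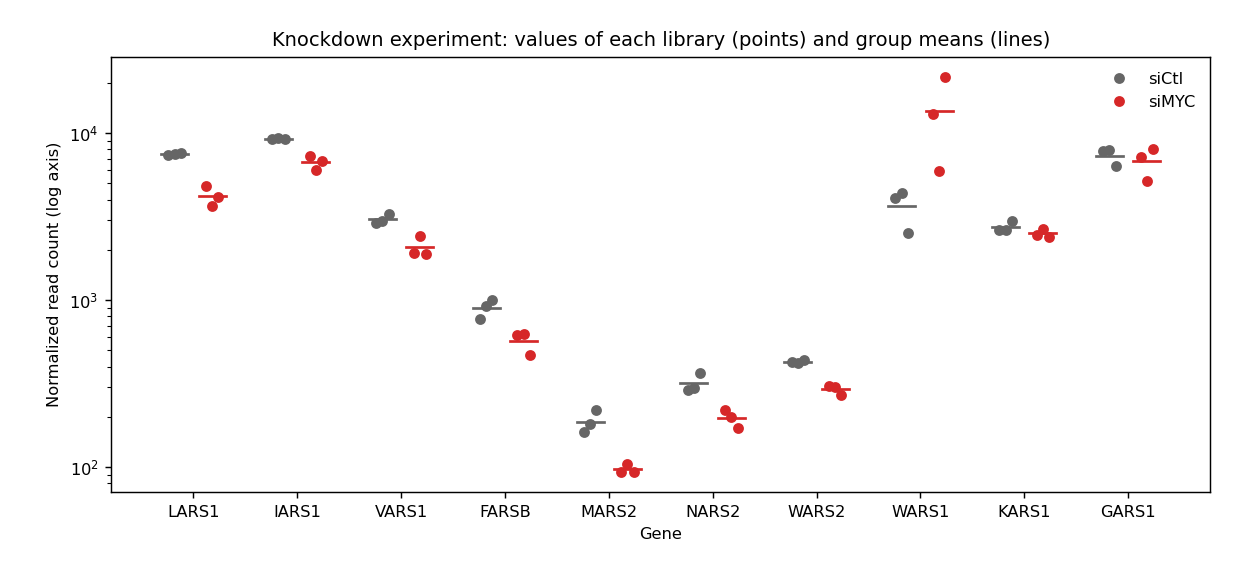
Normalized read counts on a log axis (vertical) of 10 genes (horizontal) in the 3 siCtl and 3 siMYC libraries, with points for libraries and lines for group means. The first 7 genes fell in siMYC without overlap, WARS1 lies higher but missed the threshold, and KARS1 and GARS1 overlap.

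Genes that work with these enzymes had mostly negative values in siMYC, and the counts called lower below stand against 4.78% of all genes. Of the 3 scaffold genes of the multisynthetase complex 1 fell, AIMP1 (log2 -0.78), as did 2 of its 8 enzymes, LARS1 and IARS1. Of 9 genes of cytosolic elongation and tRNA delivery 2 fell, EEF1B2 (-0.62) and EEF1A1 (-0.43), both parts of the elongation step that brings charged tRNA to the ribosome. Of 19 mitochondrial translation partners 3 fell, MRRF (-0.71), MTRF1 (-0.60) and GFM2 (-0.65), which act at release and recycling of mitochondrial ribosomes, and all 19 had negative values. None of these 4 lists had a gene called higher, nor one higher at an unadjusted p under 0.05 with limma. Of 23 amino acid response genes 4 (17.4%) rose, among them ATF5 (1.12), against 11.4% of all genes called higher. None of the list was called lower, where limma had 2 lower at an unadjusted p under 0.05. The values of the list ran from -1.58 to 1.12.

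The count of 7 depended on the libraries used. It was 0 to 8 with each library left out in turn, and 0 without siCtl 2, without siCtl 3 and without siMYC 3, 1 without siCtl 1 and 4 without siMYC 2. The share of all genes called lower moved with it, from 4.78% to 0.52%, 0.331% and 0.515% in the fits with 0 members, 0.5% without siCtl 1 and 3.82% without siMYC 2, and it was 12.5% without siMYC 1. With GC and length trends removed, 14 members (36.8%) were called lower against 10.5% of all genes, including 6 of the 7, with FARSB at an adjusted p of 0.0533 and EPRS1, QARS1, YARS1, AARS2, CARS2, EARS2, TARS2 and YARS2 added.

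The second question is what KJ-PYR-9 does to the family within 3 h. The 12 inhibitor libraries shared 1 fit. Against vehicle, 12 of 37 members (32.4%) rose and 3 (8.11%) fell, against 25.4% of 13616 genes called higher and 17.5% called lower. The 9 cytosolic genes that rose were VARS1 (log2 0.86), QARS1 (0.83), SARS1 (0.81), FARSA (0.80), MARS1 (0.80), AARS1 (0.55), CARS1 (0.51), YARS1 (0.42) and HARS1 (0.41), and the 3 mitochondrial genes were SARS2 (0.75), FARS2 (0.59) and CARS2 (0.40). RARS1, RARS2 and IARS2 fell. The median change was 0.33 in the cytosolic set and 0.19 in the mitochondrial set, and 0.06 over all genes. Of all called genes 59.2% were higher, against 49.4% after TMM rescaling and 48.2% with edgeR on the recovered reads.

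QARS1, the glutaminyl enzyme of the multisynthetase complex (chr3:49095932-49104757), had the smallest p of the family. It measured 2017, 2009 and 2101 in VEH and 3393, 3763 and 3772 under KJ-PYR-9 (log2 0.83, SE 0.12, adjusted p 0.00111). VARS1, the cytosolic valyl enzyme (chr6:31777518-31795752), measured 1992, 2235 and 1951 against 3386, 3855 and 4009 (log2 0.86, SE 0.15, adjusted p 0.00251). SARS1 measured 2833, 2832 and 3940 against 5498, 5003 and 6259 (log2 0.81, SE 0.18, adjusted p 0.00613). All 3 treated libraries exceeded all vehicle libraries for each of these genes, which the choice of genes required. Of the 13616 genes tested, 4818 were higher and 3974 lower without overlap. FARSA, the alpha subunit of the phenylalanyl enzyme, measured 1399, 1787 and 1643 against 2506, 2846 and 3057 (log2 0.80, SE 0.17, adjusted p 0.00453), while the log2 change of FARSB was -0.42 without a call. FARSB was called lower in the fit with replicate number as a block (adjusted p 0.0294).

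The arginyl enzymes of both compartments fell together. RARS1 (chr5:168486471-168519301) measured 1187, 1219 and 1007 in VEH and 644, 689 and 474 under KJ-PYR-9 (log2 -0.93, SE 0.29, adjusted p 0.0243). RARS2, the mitochondrial form, measured 340, 325 and 355 against 221, 211 and 183 (log2 -0.73, SE 0.23, adjusted p 0.0251). IARS2 measured 1081, 1194 and 1035 against 718, 804 and 540 (log2 -0.70, SE 0.22, adjusted p 0.0275). The groups did not overlap for any of the 3, but no member was called lower without VEH 1, without VEH 2 or without KJ-PYR-9 library 3. In those fits 8.74%, 10.2% and 8.47% of all genes were called lower. The count of rises was 7 (18.9%) without VEH 1, where 16.9% of all genes were called higher.

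With replicate number as a block, 17 members (45.9%) were called higher and 7 (18.9%) lower, against 32.2% and 25.8% of all genes. WARS1, which had a change of 0.57 and overlapping groups without the block (adjusted p 0.174), was among the added rises with an adjusted p of 0.00214. Its values were 3713, 2489 and 5300 in VEH and 5114, 4279 and 7350 under KJ-PYR-9, with library 2 the lowest and library 3 the highest in both groups.

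Members that rose and members that fell differed in base composition. The longest transcripts of the 12 that rose had a GC content of 46.8% to 62.6%, and those of the 3 that fell 41.4% to 43.8%. Over the 37 members the log2 change ranked with GC content at a Spearman rho of 0.86, and over 13241 genes with a transcript at 0.72. These correlations describe genes that share the same libraries, and they were computed after the members' changes had been seen. Removing the GC and length trends fitted over all genes left 5 members called higher, HARS1, MARS1, QARS1, SARS1 and WARS2, and RARS1 alone called lower (log2 -0.51, adjusted p 0.0496), where 12.5% of all genes were called higher and 10.9% lower. QARS1 then stood at 0.42 (adjusted p 0.0101), and VARS1 at 0.13 (adjusted p 0.474). The part of base composition in the calls cannot be told apart from the treatment's own effect on genes of that composition.

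**Figure D3:**
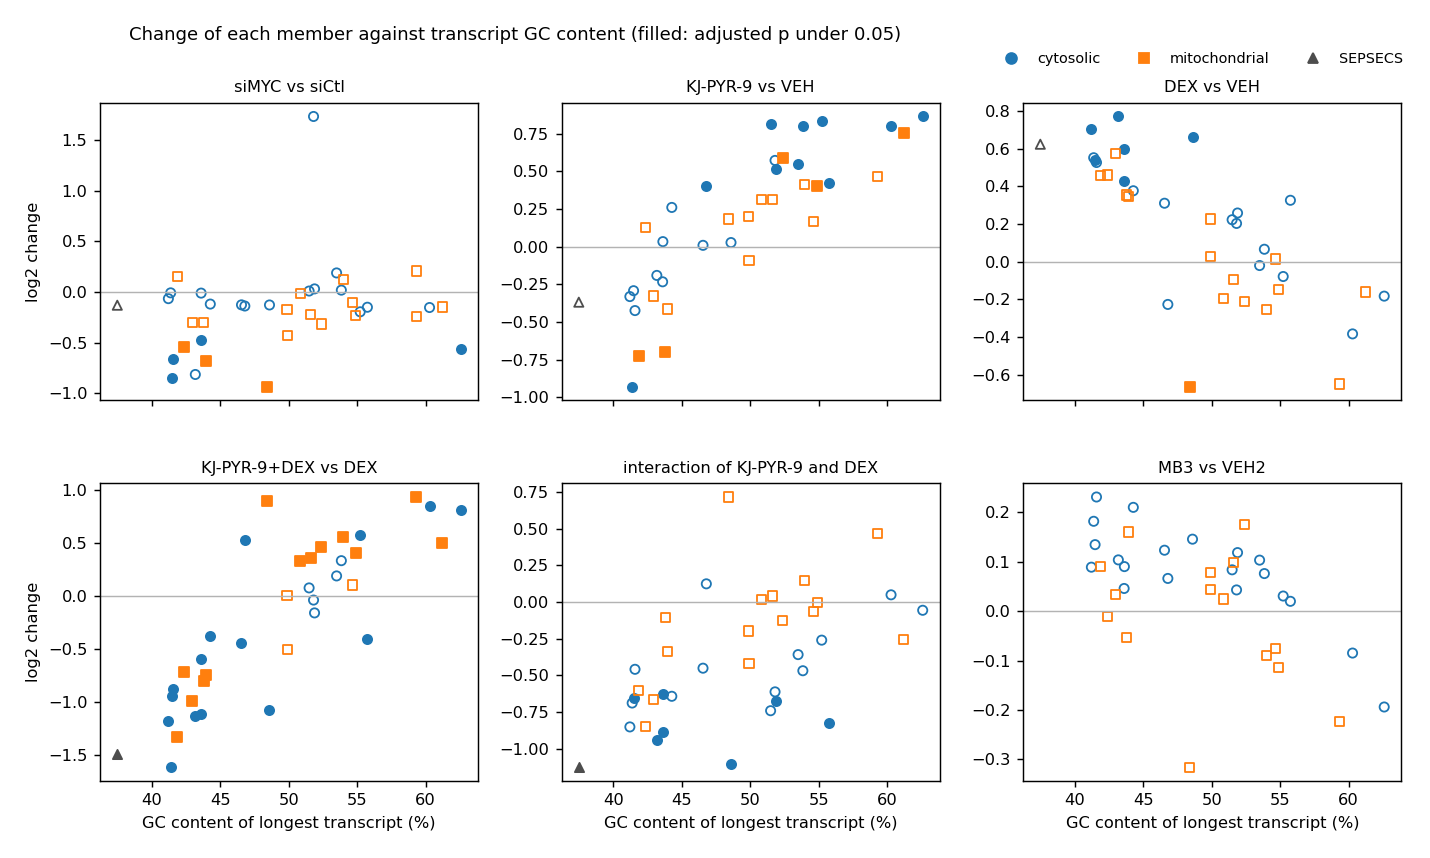
Log2 change of each member (vertical axis) against the GC content of its longest transcript in percent (horizontal axis), in 6 panels with 1 comparison each. Circles are cytosolic, squares mitochondrial and the triangle SEPSECS, and filled marks passed adjusted p under 0.05. The change climbs with GC content in both KJ-PYR-9 comparisons and goes down with it under DEX.

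Amino acid response genes moved in the same comparison. Of 23, 16 rose under KJ-PYR-9 and 0 fell, where 25.4% of all genes rose and 17.5% fell, and 0 were lower at an unadjusted p under 0.05 with limma. ATF4 itself went from 3264 to 4973 (log2 0.61, SE 0.11, adjusted p 0.0028). ATF3, a stress-induced partner factor, went from 332 to 4804 (log2 3.84). Of the 8 synthetases with the TGATGNAA letters 3 rose, AARS1, CARS1 and MARS1. GARS1, which holds them too, measured 3813, 3405 and 4423 in VEH and 3808, 3778 and 4222 under KJ-PYR-9, a log2 change of 0.03 (SE 0.15, adjusted p 0.89). IARS1 had a change of 0.03 and TARS1 of -0.23, neither with a call. Among partner genes, the scaffold AIMP2 rose (0.74) while AIMP1 (-0.65) and EEF1E1 (-1.26) fell. Of 9 genes of cytosolic elongation and tRNA delivery 3 rose, among them EEF2 (1.34), which moves the ribosome along, and EEF1A1 (0.66). The 1 that fell was XPOT (-0.57), the exporter of tRNA from the nucleus. Of 19 mitochondrial translation partners 3 rose, among them TUFM (0.87), the factor that brings in charged tRNA, and 3 fell. Of these 19, 15 had negative values, and their median was -0.37. At an unadjusted p under 0.05 limma had 4 of them higher and 8 lower.

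DEX changed fewer members. Against vehicle, 6 of 37 (16.2%) rose and 1 (2.7%) fell, against 9.5% of all genes called higher and 8.02% called lower. All 6 that rose were cytosolic, among them EPRS1, GARS1, TARS1, LARS1 and IARS1, and 4 of the 6 belong to the multisynthetase complex. The median change was 0.32 in the cytosolic and -0.04 in the mitochondrial set, and without DEX 1 it was 0.27 and -0.0071. This comparison shares its VEH libraries with the one above.

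EPRS1, the fused glutamyl and prolyl enzyme (chr1:219968600-220046505), measured 2652, 2863 and 2473 in VEH and 5561, 4352 and 3849 in DEX (log2 0.77, SE 0.16, adjusted p 0.0101). GARS1 (chr7:30594735-30634033) measured 3813, 3405 and 4423 against 7120, 5584 and 5739 (log2 0.66, SE 0.15, adjusted p 0.0137). DEX library 1 had the highest EPRS1 and GARS1 of its group, but no DEX library fell into the vehicle range for either gene. TARS1, the threonyl enzyme, measured 2070, 2173 and 1902 against 3307, 3408 and 2626 (log2 0.60, SE 0.16, adjusted p 0.0278). MARS2 went the other way, from 94.6, 110 and 116 to 48.8, 80.2 and 76.2, and fell by 0.66 (SE 0.19, adjusted p 0.0386). Its lowest value came from DEX 1.

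Without DEX 1, a single member, EPRS1 (2.7% of 37), was called higher and 0 lower, against 3.48% and 2.87% of all genes. The higher count was 1 to 9 over the libraries left out, with 1 (2.7%) also without VEH 2 and 2 (5.41%) without VEH 1, VEH 3 or DEX 2. Of all genes, 4.25% were called higher without VEH 2, and 5.67%, 4.22% and 4.34% without VEH 1, VEH 3 and DEX 2. MARS2 lost its call without VEH 1, VEH 2, VEH 3 or DEX 1, with adjusted p up to 0.127. EPRS1 alone among the 7 called genes kept its call in all 14 alternatives. With the replicate block, 12 members (32.4%) were called higher and 4 (10.8%) lower, against 23.9% and 19.6% of all genes, the added ones including FARSB, KARS1, RARS1, WARS2 and YARS1 upwards and AARS2, FARSA and HARS1 downwards.

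The GC relation had the opposite sign here, with a Spearman rho of -0.78 over the 37 members and -0.67 over all genes (-0.73 and -0.59 without DEX 1), and the 6 that rose had a GC content of 41.2% to 48.6%. With the trends removed, EPRS1 (0.49), GARS1 (0.62), YARS1 (0.61) and CARS1 were called higher, and MARS2 and HARS1 lower, where 4.74% of all genes were higher and 4.75% lower. Of the amino acid response list 7 of 23 rose and 0 fell, against 9.5% of all genes called higher, and 5 of 23 rose without DEX 1. The genes that rose included ATF3 (log2 3.44), CEBPB (2.51), CEBPG (0.81) and the cystine transporter gene SLC7A11 (1.03). At an unadjusted p under 0.05 limma had 1 of the list lower. ATF4 went from 3264 to 4056 (log2 0.32, adjusted p 0.0681). XPOT rose by 0.58 on the log2 scale, the highest value of the 9 genes of cytosolic elongation and tRNA delivery. Of that list 2 were called higher and 1 lower, with a median of 0.0069, and 0 were called without DEX 1.

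KJ-PYR-9 given with DEX, compared with DEX alone, had the most calls of any comparison, both in the family and over all genes. Of 37 members 12 (32.4%) rose and 17 (45.9%) fell, against 33.6% of all genes called higher and 35.1% called lower. The comparison shares its DEX libraries with the one above. The cytosolic set had 4 rises (VARS1, FARSA, QARS1 and HARS1) and 11 falls, with a median of -0.39. The mitochondrial set had 8 rises and 5 falls, with a median of 0.22. Without DEX 1 these medians were -0.34 and 0.19. SEPSECS fell. The gap between the set medians, -0.61, was -0.11 after GC and length trends were removed and -0.49 without KARS1 and GARS1.

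The largest falls were those of RARS1, SEPSECS and RARS2. RARS1 measured 1833, 1858 and 1347 in DEX and 636, 772 and 322 in KJ-PYR-9+DEX (log2 -1.62, SE 0.29, adjusted p 0.000695). SEPSECS (chr4:25120014-25160582) measured 146, 107 and 127 against 48.1, 59.9 and 29.5 (log2 -1.49, SE 0.24, adjusted p 0.000402). For both genes, the third KJ-PYR-9+DEX library was the lowest and every library with the inhibitor was below every DEX library. RARS2 measured 491, 517 and 399 against 225, 234 and 120 (log2 -1.33, SE 0.23, adjusted p 0.000568). EPRS1 (-1.13), TARS1 (-1.12), GARS1 (-1.07) and LARS1 (-0.95) fell too, with adjusted p from 0.000214 to 0.00024. KARS1 (-0.44) and NARS1 (-0.38) were called lower although their groups overlapped.

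The largest rises were those of AARS2, MARS2, FARSA and VARS1. AARS2, the mitochondrial alanyl enzyme, measured 168, 208 and 249 in DEX and 323, 353 and 535 in KJ-PYR-9+DEX (log2 0.93, SE 0.21, adjusted p 0.00249). MARS2 measured 48.8, 80.2 and 76.2 against 142, 104 and 134 (log2 0.90, SE 0.19, adjusted p 0.00195). FARSA measured 1010, 1300 and 1409 against 1922, 2298 and 2462 (log2 0.85, SE 0.17, adjusted p 0.00111). VARS1 measured 1562, 1931 and 1968 against 2804, 3000 and 3781 (log2 0.81, SE 0.15, adjusted p 0.000905). Without DEX 1 AARS2 stood at 0.79 (adjusted p 0.0119) and MARS2 at 0.68 (adjusted p 0.00545). None of these 4 genes had overlapping groups, where 4604 of the 13616 genes tested were higher and 4798 lower without overlap. VARS1 alone of the 4 turned its sign, to -0.24 (adjusted p 0.167), when GC and length trends were removed.

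FARSA and FARSB, whose products form 1 enzyme, went opposite ways, with FARSB falling by 0.88 (SE 0.22, adjusted p 0.00416). Their transcripts have a GC content of 60.3% and 41.6%. The change ranked with GC content at a Spearman rho of 0.83 over the members and 0.81 over all genes, and without DEX 1 at 0.82 and 0.79. With the trends removed, FARSA stood at 0.04 and FARSB at -0.06, and neither was called. The count then was 2 higher, HARS1 (0.73) and MARS2 (0.95), and 7 lower, YARS1 (-1.04), GARS1 (-1.01), RARS1 (-0.68), TARS1 (-0.57), EPRS1 (-0.55), RARS2 (-0.42) and CARS1, where 17.0% of all genes were higher and 15.3% lower. Without DEX 1, and with the trends left in, there were 8 rises (21.6%) and 15 falls (40.5%), against 29.1% and 31.2% of all genes.

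Whether KJ-PYR-9 acts differently with and without DEX is asked by the interaction, the log2 effect with DEX minus the effect without it. Of 37 members 8 (21.6%) were called lower and 0 higher, against 9.62% of all genes called lower and 7.15% called higher. At an unadjusted p under 0.05 limma had 1 higher, MARS2 (0.71, adjusted p 0.0985). With limma after trend removal MARS2 was called (0.84, adjusted p 0.0442), and with the replicate block, edgeR and DESeq2 the higher count was 0. The 8 were SEPSECS and 7 cytosolic genes, and 0 of 16 mitochondrial genes was called, with 1 higher and 2 lower at an unadjusted p under 0.05. The median over all genes was -0.11, the cytosolic median -0.63 and the mitochondrial median -0.12, and without DEX 1 the 3 were -0.13, -0.57 and -0.11. After TMM rescaling the median of all genes was -0.02 and 4 members were called lower, and after trend removal it was -0.0018 and 7 were. Of all called genes 42.6% were higher in the interaction, 53.3% after TMM rescaling and 53.9% after trend removal.

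GARS1 had the smallest p. Its level was 3880 ± 512 (SD, n = 3) in VEH, 3936 ± 248 under KJ-PYR-9, 6148 ± 846 in DEX and 2911 ± 277 with both, so the single treatments were at or above vehicle and the combination below it. The interaction was -1.10 (SE 0.21, adjusted p 0.00474). EPRS1 measured 2663 ± 195, 2331 ± 146, 4587 ± 880 and 2083 ± 255 in the same order (interaction -0.94, SE 0.22, adjusted p 0.0155). TARS1 measured 2048 ± 137, 1741 ± 83.4, 3114 ± 425 and 1439 ± 255 (interaction -0.89, SE 0.22, adjusted p 0.0204). For each of the 3, every DEX library lay above every library of the other groups.

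YARS1, the tyrosyl enzyme (chr1:32775239-32817358), had another course, with 2781 ± 366 in VEH, 3466 ± 139 in DEX, 3703 ± 142 under KJ-PYR-9 and 2628 ± 253 with both (interaction -0.82, SE 0.18, adjusted p 0.0123). SEPSECS had the largest value, -1.13 (SE 0.34, adjusted p 0.0421), but lost its call in 13 of 20 alternatives. CARS1 (-0.67), LARS1 (-0.66) and IARS1 (-0.62) were called too, and lost their calls in 9, 11 and 12 of the 20. Trend removal took LARS1 to -0.25 (adjusted p 0.195) and IARS1 to -0.32 (adjusted p 0.145). GARS1, EPRS1 and YARS1 kept their calls in all 20 alternatives, including trend removal (-0.97, -0.62 and -1.01), and TARS1 lost its call in 3, without VEH 3, DEX 2 or KJ-PYR-9 library 2, with adjusted p up to 0.0552. The lower count was 3 to 9 with each library left out. It was 4 without DEX 1 (10.8%, against 7.07% of all genes). It was 4 also without VEH 1, without VEH 2, without KJ-PYR-9 library 1 and without KJ-PYR-9 library 3. Of all genes, 7.44%, 6.64%, 6.16% and 7.09% were called lower there, in that order. It was 5 (13.5%, against 6.66% of all genes) without DEX 2 and 3 (8.11%, against 6.33%) without KJ-PYR-9 library 2. With the replicate block 16 members (43.2%) were called lower, against 20.0% of all genes, the added ones including KARS1, MARS1, NARS1, SARS1, WARS1 and WARS2.

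**Figure D4:**
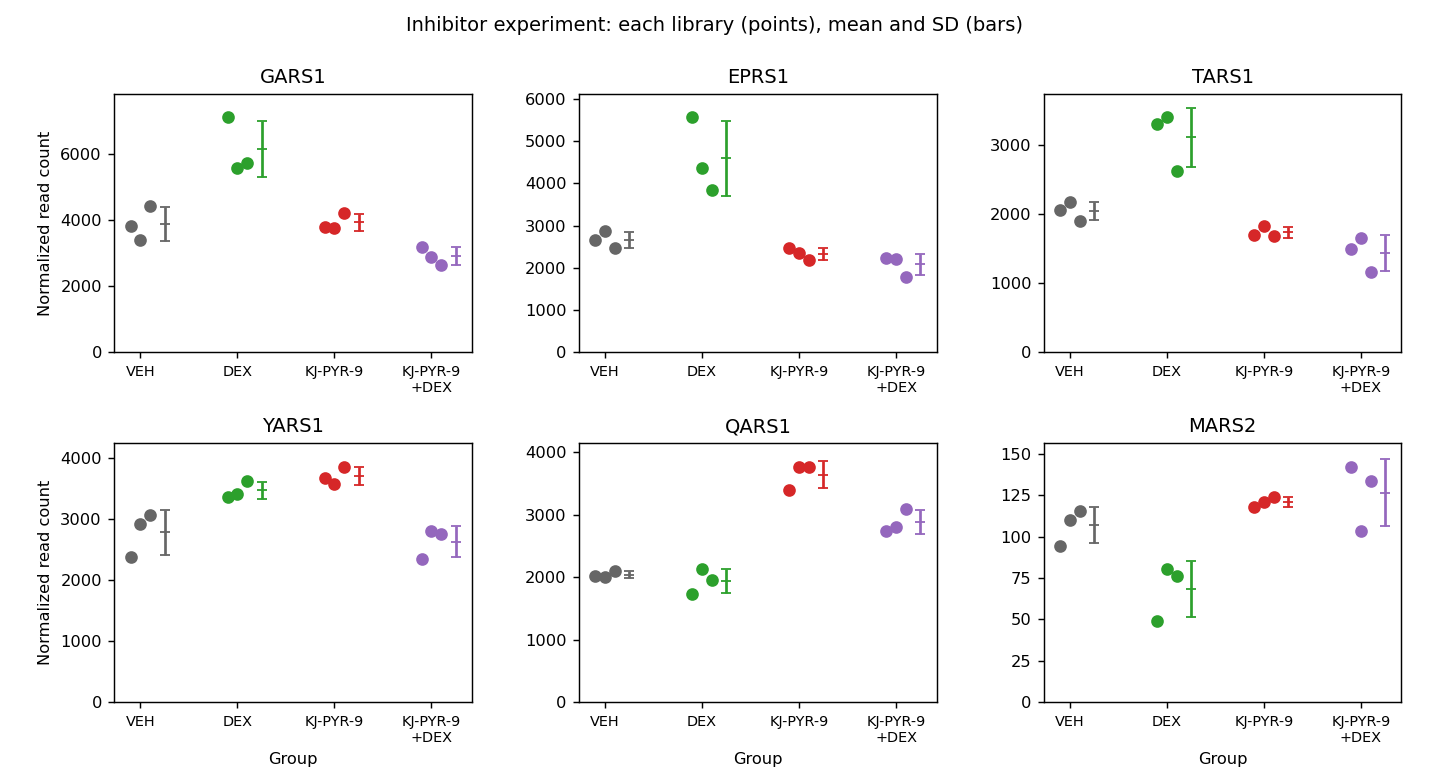
Normalized read counts (vertical axis, from 0) of 6 genes in the 4 groups of the inhibitor experiment (horizontal axis), with points for libraries and bars for the mean and SD of 3. GARS1, EPRS1 and TARS1 are highest in DEX and lowest with both agents, YARS1 is higher with either agent alone than with vehicle or both, QARS1 is higher in both groups with the inhibitor and MARS2 is lowest in DEX.

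The amino acid response list had the same direction in the interaction. Of 23 genes 12 were called lower and 0 higher, where 9.62% of all genes were called lower, with 1 higher at an unadjusted p under 0.05. The median was -1.01, and without DEX 1 it was -1.06 with 11 called lower. ATF4 had an interaction of -0.96 (SE 0.16, adjusted p 0.00224), DDIT3, a stress-induced factor, -4.40, SESN2 -3.69 and ASNS, the asparagine synthetase gene, -2.87. ATF3 averaged 332 in VEH, 4804 under KJ-PYR-9, 3597 in DEX and 171 with both. Of the 8 synthetases with the TGATGNAA letters, 4 were called lower, GARS1, TARS1, CARS1 and IARS1, and their median was -0.63, equal to that of the cytosolic set. Of 6 other genes of the selenocysteine pathway 1 was called lower, as SEPSECS was. This was SECISBP2 (-1.51), which reads selenocysteine codons, and the other 5 had no call. Whether these gene lists bear on the synthetase values was not tested.

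MB-3 left the family without a call. In MB3 against VEH2, 0 of 35 members were called, where 3 of 10048 genes were higher (0.0299%) and 3 were lower (0.0299%). At an unadjusted p under 0.05 limma had 4 members, NARS1 and FARSB higher and AARS2 and MARS2 lower. Of all 10048 genes 1377 were under that p, 567 higher and 810 lower. The fit with a replicate block called none of the members. NARS1, the asparaginyl enzyme, measured 3710, 3619 and 3811 in VEH2 and 4365, 4281 and 4241 in MB3 (log2 0.21, SE 0.07, adjusted p 0.294). MARS2 measured 149, 173 and 124 against 118, 117 and 120 (log2 -0.32, SE 0.12, adjusted p 0.326). The groups did not overlap for either gene. AARS2 measured 300, 257 and 275 against 246, 233 and 232 (log2 -0.22, adjusted p 0.326), again without overlap, and FARSB 710, 784 and 690 against 932, 861 and 774 (log2 0.23, adjusted p 0.344), with overlap. Of all genes tested, 1152 were higher and 1162 lower without overlap. The members ranged from -0.32 to 0.23. The median was 0.09 in the cytosolic set, 0.02 in the mitochondrial set and 0.01 over all genes. With GC content the changes had a Spearman rho of -0.53 over the 35 members and -0.62 over all genes.

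The 2 sets can be followed library by library in the plot of median deviations. In siMYC the cytosolic medians were -0.13, -0.14 and -0.15 in libraries 1, 2 and 3, and the mitochondrial ones -0.28, -0.05 and -0.31. Under DEX the cytosolic medians were 0.33, 0.32 and 0.30 while the mitochondrial ones were -0.22, 0.01 and -0.02, with the lowest from DEX 1. Under KJ-PYR-9 both sets were above vehicle, at 0.29, 0.23 and 0.35 for cytosolic and 0.19, 0.26 and 0.17 for mitochondrial genes. With both agents the cytosolic medians were -0.13, 0.03 and 0.06, close to the vehicle range of -0.08 to 0.05. The gap between the sets under KJ-PYR-9 alone, 0.14, rested on VEH 2 and was -0.0039 without it.

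**Figure D5:**
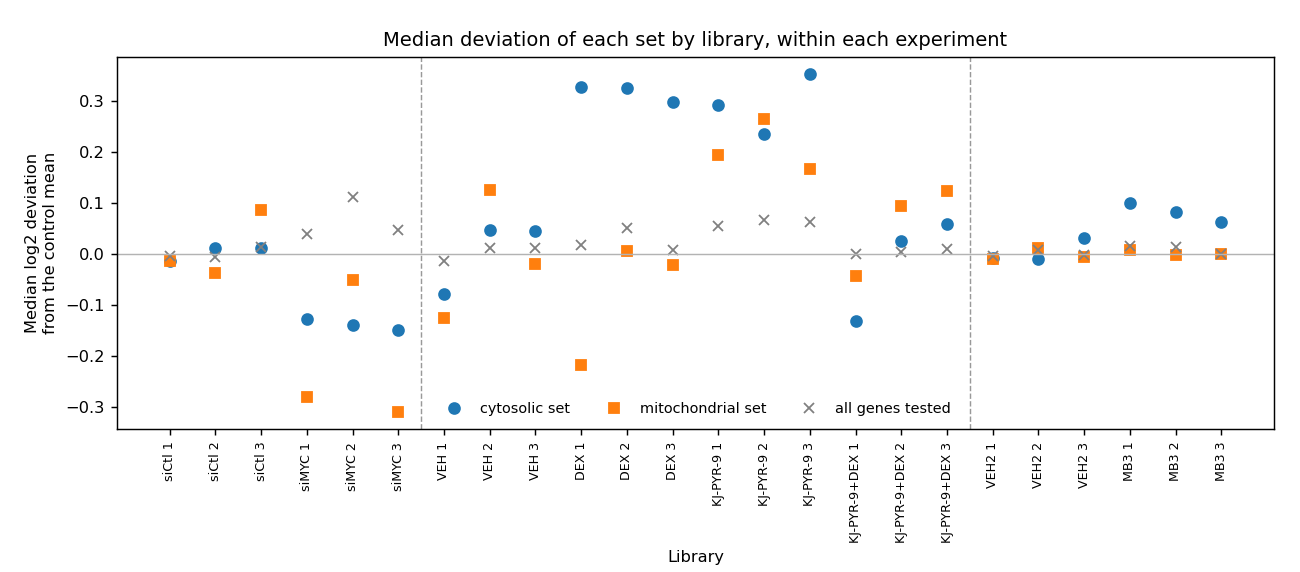
Median log2 deviation from the mean of the experiment's control libraries (vertical axis) for each of 24 libraries (horizontal axis), for the cytosolic set (circles), the mitochondrial set (squares) and all genes tested (crosses). Dashed lines part the 3 experiments, and the vehicle is the reference for all 12 inhibitor libraries. The sets part most in the 3 DEX libraries.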

How the data were processed

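The values are normalized read counts, deposited by the authors as 1 table per library in signal units, meaning read counts divided by a size factor. Per the submitters' processing notes, bcl2fastq, SAMtools, featureCounts and DESeq2 were used with GRCh38 (hg38). Libraries were rRNA-depleted total RNA with paired-end reads, per the labels' protocols. The aligner, annotation and strand setting are not given in the sources used here, so reads of overlapping or antisense genes may be mixed. The lowest mean of any gene in the MB-3 table was 83.9, so the results there cover genes above that level.

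From these values, log2(value + 1) was tested with limma 3.58.1 in R 4.3.3 on genes with a mean of at least 10, with Benjamini-Hochberg adjustment over all genes tested and a threshold of 0.05. The 12 inhibitor libraries shared 1 fit, and the other experiments had 1 fit each. A fold on this scale understates changes of low genes. Rows that repeated a symbol (21 in the knockdown and 32 in the inhibitor table) were summed with the other rows of that symbol. The 6462 of 24290 inhibitor features without a symbol were left out. Depth was recovered from the step between low values, set so that nearly all of the lowest values were whole multiples of it within 0.0001. Every value was a whole multiple within a wider tolerance in all 24 libraries. Recovered reads were tested with edgeR 4.0.16 and DESeq2 1.42.0 in the inhibitor experiment alone. Precision is limited by 3 libraries per group. The GC content and length of the longest GENCODE v29 transcript were found for 17130 of 18154 symbols and all 38 members. Scripts were tested on simulated data.

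Same-numbered libraries deviated together in the inhibitor experiment (18 of 18 pairs with a correlation over 0.1, from 0.13 to 0.524) and in the MB-3 experiment (3 of 3, from 0.208 to 0.389), which pairs them by the data and not by a stated shared batch. In the knockdown 0 of 3 pairs passed (-0.346 to -0.02). Fits with a replicate block, TMM rescaling, other pseudocounts and filters, trend removal and each library left out were run as alternatives.

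Members and gene lists were chosen with earlier results of these data known. Values of every library were printed for up to 4 called members with the largest rise and up to 4 with the largest fall whose groups did not overlap. Where none was called, the 2 with the smallest p in each direction were taken, and WARS1, KARS1 and GARS1 were added in the knockdown. In the inhibitor experiment IARS2, GARS1, WARS1 and YARS1 were described further after their values had been seen. Single-gene results of a few genes are not reported here.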

Additional observations from a re-analysis of the deposited data

Results flagged for a closer look

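For 8 members the effect of KJ-PYR-9 differed between cells with and without DEX, by limma's interaction test. All 8 were called lower, which was 21.6% of members against 9.62% of all genes. The log2 effect with DEX minus that without was -1.13 for SEPSECS, -1.10 for GARS1, -0.94 for EPRS1, -0.89 for TARS1, -0.82 for YARS1, -0.67 for CARS1, -0.66 for LARS1 and -0.62 for IARS1. DEX library 1 stands apart in depth, and without it 4 of the members (10.8%) were called lower, against 7.07% of all genes. Over the 20 alternatives SEPSECS lost its call in 13, IARS1 in 12, LARS1 in 11, CARS1 in 9 and TARS1 in 3.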

How the results depend on the processing

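Counts of called members depended on the processing as follows. In siMYC, 1 member was higher with a pseudocount of 8 and 1 with a mean of at least 50, while 4 were lower without a filter, 14 with GC and length trends removed and 0 with a replicate block, where same-numbered libraries share only a number. Of all genes, 12.4% were higher with that pseudocount and 14.5% with that mean. Called lower were 3.72% without a filter, 10.5% after trend removal and 0.453% with the block. For KJ-PYR-9, trend removal gave 5 higher and 1 lower, the block 7 lower, and edgeR and DESeq2 5 lower each. Those 5 were 13.5% of members, against 26.8% of all genes with edgeR and 26% with DESeq2. For DEX the block gave 12 higher and 4 lower. Lower members there numbered 2 with TMM, with a pseudocount of 8, with a mean of at least 50, with trend removal and with edgeR, 3 with DESeq2 and 0 without a filter. In the same order, 9.33%, 8.68%, 9.21%, 4.75%, 9.89%, 12.4% and 5.31% of all genes were called lower. For both agents against DEX, trend removal gave 2 higher and 7 lower. The interaction had 4 lower with TMM, 5 without a filter and 16 with the block, and 1 higher with trend removal. Of all genes, 7.57%, 6.7% and 20% were lower in it with TMM, without a filter and with the block, and 9.33% higher with trend removal. The cytosolic minus mitochondrial median became 0.16 for DEX, -0.11 for both agents against DEX, -0.29 for the interaction and 0.11 for MB3 with trend removal. For both agents against DEX it was -0.49 without a filter and -0.49 without KARS1 and GARS1. The ratio of set levels was 5.03, 5.58 and 6.44 per kilobase of union exons in siCtl, VEH and VEH2. VARS1 with both agents against DEX turned to -0.24 with trend removal. The cause of these shifts was not tested.

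With each library left out, siMYC had 0 to 1 higher and 0 to 8 lower, with a set gap of 0.049 to 0.22 and GARS1 at -0.26 to 0.059. KJ-PYR-9 had 7 to 12 higher and 0 to 2 lower, with a gap of -0.0039 to 0.15. DEX had 1 to 9 higher and 0 to 2 lower (gap 0.28 to 0.50), and both agents against DEX 8 to 12 and 14 to 17 (gap -0.63 to -0.53). The interaction had 3 to 9 lower (gap -0.58 to -0.42), and MB3 had 0 calls (gap 0.052 to 0.098). In these fits 2.59% to 14.5% of all genes were higher and 0.331% to 12.5% lower in siMYC. For KJ-PYR-9 these shares were 16.5% to 24.5% and 8.47% to 15.4%. They were 3.48% to 14.6% and 2.84% to 12% for DEX, and 29.1% to 33.9% and 31% to 35.3% for both agents against DEX. The interaction had 6.16% to 11.6% of all genes lower. Of 492 values for 35 single-gene results, 408 kept direction and side of the threshold, 79 lost the call, 3 gained it and 2 changed sign. The count tests were run for the inhibitor experiment alone, since the recovered reads of the others did not pass a separate check in every library. Depth limits low genes most in DEX 1, the shallowest library.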
